A study of Oryctolagus cuniculus with 6 samples.

Results

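Axon guidance ligands and receptors were compared by family between normal rabbit retina and retina with proliferative vitreoretinopathy (PVR), a disease in which cells form contracting membranes on the retina. The genes were chosen by symbol: semaphorins of classes 3 to 7, plexins, EphA and EphB receptors, ephrins, SLITs, ROBOs, netrins, netrin-G genes, UNC5 receptors and DCC. Earlier results of these data were known at that point. The rule found 68 of the 28788 genes in the files, made up of 36 ligands and 32 receptors. By family these were 19 semaphorins, 9 plexins, 9 EphA receptors, 5 EphB receptors, 8 ephrins, 3 SLITs, 4 ROBOs, 6 netrins and 5 receptors of the UNC5 and DCC group.

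RNA was sequenced from 3 normal and 3 PVR samples of retina from adult rabbits. To model PVR, the sclera was punctured, vitreous was withdrawn and platelet-rich plasma was injected into the vitreous cavity, so puncture, loss of vitreous and plasma cannot be told apart. Neither the strain nor the time after injection was stated, and the labels do not say that each sample is a separate animal, so p-values measure the spread between these samples. The total count per sample ran from 31904593 to 43035080, of which the guidance genes took 0.259% to 0.293%. Photoreceptor markers summed to 12572 to 19855 FPKM in every sample, which fits the label of retina. Lens markers summed to 45029 FPKM in normal replicate 2 against 26.0 and 29.8 FPKM in the other normal samples and 386 to 433 FPKM in PVR. Oligodendrocyte markers ran from 92.6 to 461 FPKM in normal samples, highest in replicate 3, and from 56.7 to 59.7 FPKM in PVR. Pigment epithelium and choroid markers were also lower in PVR (157 to 275 against 101 to 114 FPKM). Higher in PVR were markers of microglia and macrophages (17.4 to 37.2 against 60.8 to 69.7 FPKM) and of astrocytes (72.3 to 169 against 216 to 237). Mueller glia and fibroblast markers were higher too, without overlap. The part of such differences in the values of members, SEMA5A included, was not tested. In bulk tissue, fewer cells of a type and less RNA per cell cannot be told apart.

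Guidance ligands steer growing axons by attraction or repulsion. Semaphorins act mostly through plexins, with neuropilins as partners of the secreted class 3. Ephrins are held in the membrane and bind Eph receptors on touching cells. SLITs repel through ROBOs, and netrins attract through DCC or repel through UNC5 receptors. In the retina these systems guide ganglion cell axons to the optic nerve and help to order synaptic layers, and several of them also act on blood vessels.

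Levels between genes were compared as FPKM, fragments per kilobase of transcript scaled to the sample's total, which accounts for length. The mean FPKM over the 6 samples was at least 10 for 11 members, from 1 to 10 for 45 and under 1 for 12. Ligands held 69.2% and receptors 30.8% of the summed FPKM. The netrin-G ligand NTNG2, a membrane-anchored relative of netrins found at synapses, was highest, with 62.9, 57.5 and 60.2 FPKM in normal replicates 1 to 3 and 50.4, 54.7 and 50.5 FPKM in PVR. It alone held 12.3% of the summed FPKM, and it was above the next gene in every sample. That gene was SEMA7A, a semaphorin anchored by a lipid tail, with 54.6, 44.0 and 46.0 FPKM in normal and 42.0, 36.1 and 42.7 FPKM in PVR samples. SEMA3F followed at a mean of 28.9 FPKM, then SLIT2 at 20.4, SEMA5A at 18.3, SEMA3A at 14.5 and SEMA4C at 14.4 FPKM. SEMA5A was above SLIT2 in each normal sample and below it in each PVR sample. The top 10 members held 51.4% of the summed FPKM.

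**Figure D1:**
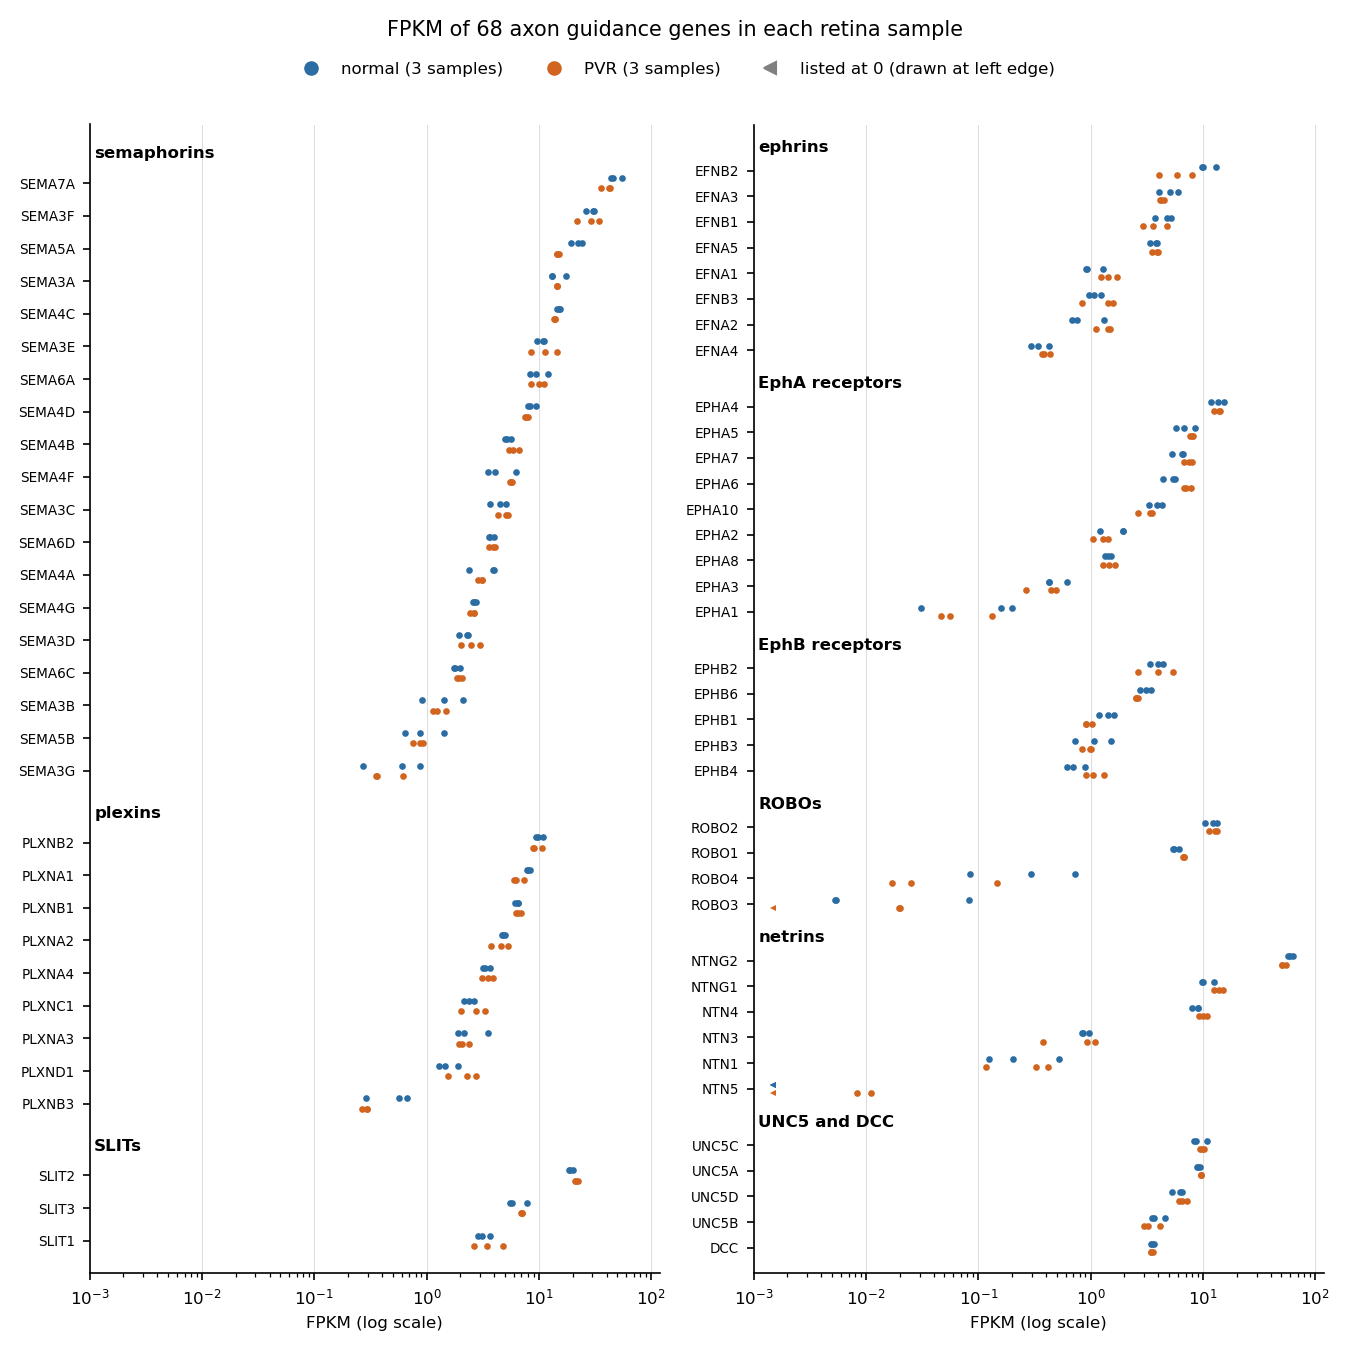
FPKM of the 68 guidance genes by family on a log axis, 1 point per sample, blue for normal and orange for PVR, with triangles at the left edge for samples in which a gene is listed at 0. NTNG2 and SEMA7A lie highest, and the points of both groups lie close together for most genes.

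In FPKM, the summed levels of the families overlapped between groups for all but the ephrins and the SLITs. All members together summed to 466 ± 15.5 FPKM in normal and 448 ± 21.8 FPKM in PVR samples (mean ± SD, n = 3 each). Semaphorins, the largest share at 39.7%, summed to 189 ± 8.36 and 174 ± 16.4 FPKM. Ephrins summed to 27.7 ± 2.66 FPKM in normal and 22.3 ± 3.17 FPKM in PVR samples, with no overlap (26.1 to 30.8 against 19.6 to 25.8). Most of this fall came from 1 gene, EFNB2, with means of 10.98 FPKM in normal and 5.95 FPKM in PVR. The family as a whole was not lower: 4 ephrins had a log2 fold change above 0 and 4 below, with a median of 0.03. The A-type ephrins alone summed to 11.1 ± 0.727 and 11.3 ± 0.480 FPKM, with overlap. SLITs were higher in PVR, at 28.9 ± 1.37 and 32.2 ± 1.68 FPKM, also without overlap (27.3 to 29.8 against 30.9 to 34.1). The sums were not tested: 3 samples against 3 cannot give an exact two-sided permutation p under 0.1. FPKM lacks the TMM factors, which scale between samples (0.953 to 0.998 in normal, 1.01 to 1.04 in PVR). Dividing by them raises normal and lowers PVR sums, so which families are apart depends on the scaling.

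No guidance gene met both thresholds, a Benjamini-Hochberg adjusted p under 0.05 in edgeR's quasi-likelihood test and a log2 fold change beyond 1. The adjusted p alone was met by 1, SEMA5A, which fell in PVR. Of the 66 members with enough counts to test, 25 had a log2 fold change above 0 and 41 below it. The share below 0 was 62.1%, beside 51.1% of all genes tested, and the median was -0.06 beside -0.01. The median size of the change, either way, was 0.18 on the log2 scale for members and 0.25 for all genes. NTN5 (0 or 1 count in every sample) and ROBO3, a receptor of commissural axons (0 to 16 counts), were too low to test.

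Shares of members were set beside those of all 18697 genes tested. Both thresholds were passed by 1.01% of all genes and by 0 members, and DESeq2 and limma-voom also gave 0 members. At an unadjusted p under 0.05, 1 member, ROBO4, also had a log2 fold change beyond 1. The adjusted p alone was passed by 1.7% of all genes, and by 0.615% of all genes as lower in PVR. At an unadjusted p under 0.05 there were 13 members, or 19.7%, where 21.2% of all genes had one. Split by direction, 11 members were lower (16.7%, background 9.94%) and 2 were higher, EPHA6 and NTNG1 (3.03%, background 11.3%). In CPM, counts scaled to the sample's total and between samples by TMM factors, the groups did not overlap for 14 members (21.2%, background 28%). Of these, 11 were lower in PVR (16.7%, background 14.6%) and 3 were higher (4.55%, background 13.4%). In FPKM, which lacks the TMM factors, 15 members were apart, and the share of all genes was not counted. They included 11 of the 14, all but PLXNB3, SEMA4D and SEMA4G, which were lower in PVR in CPM. EPHA7, EPHB4, NTN4 and UNC5A were apart in FPKM only, all higher in PVR, so the split by direction depended on the scaling. Below, overlap is judged on CPM unless FPKM is named.

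The 95% interval of the log2 fold change lay within 1 either way for 51 of 66 members (77.3%, background 61.4%), so a doubling or a halving was outside it. The 15 others were EFNA1, EFNA2, EFNA4, EFNB2, EPHA1, EPHA2, EPHA3, EPHB1, EPHB4, NTN1, NTN3, PLXNB3, PLXND1, ROBO4 and SEMA3G, and for these the interval still held a change of that size.

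**Figure D2:**
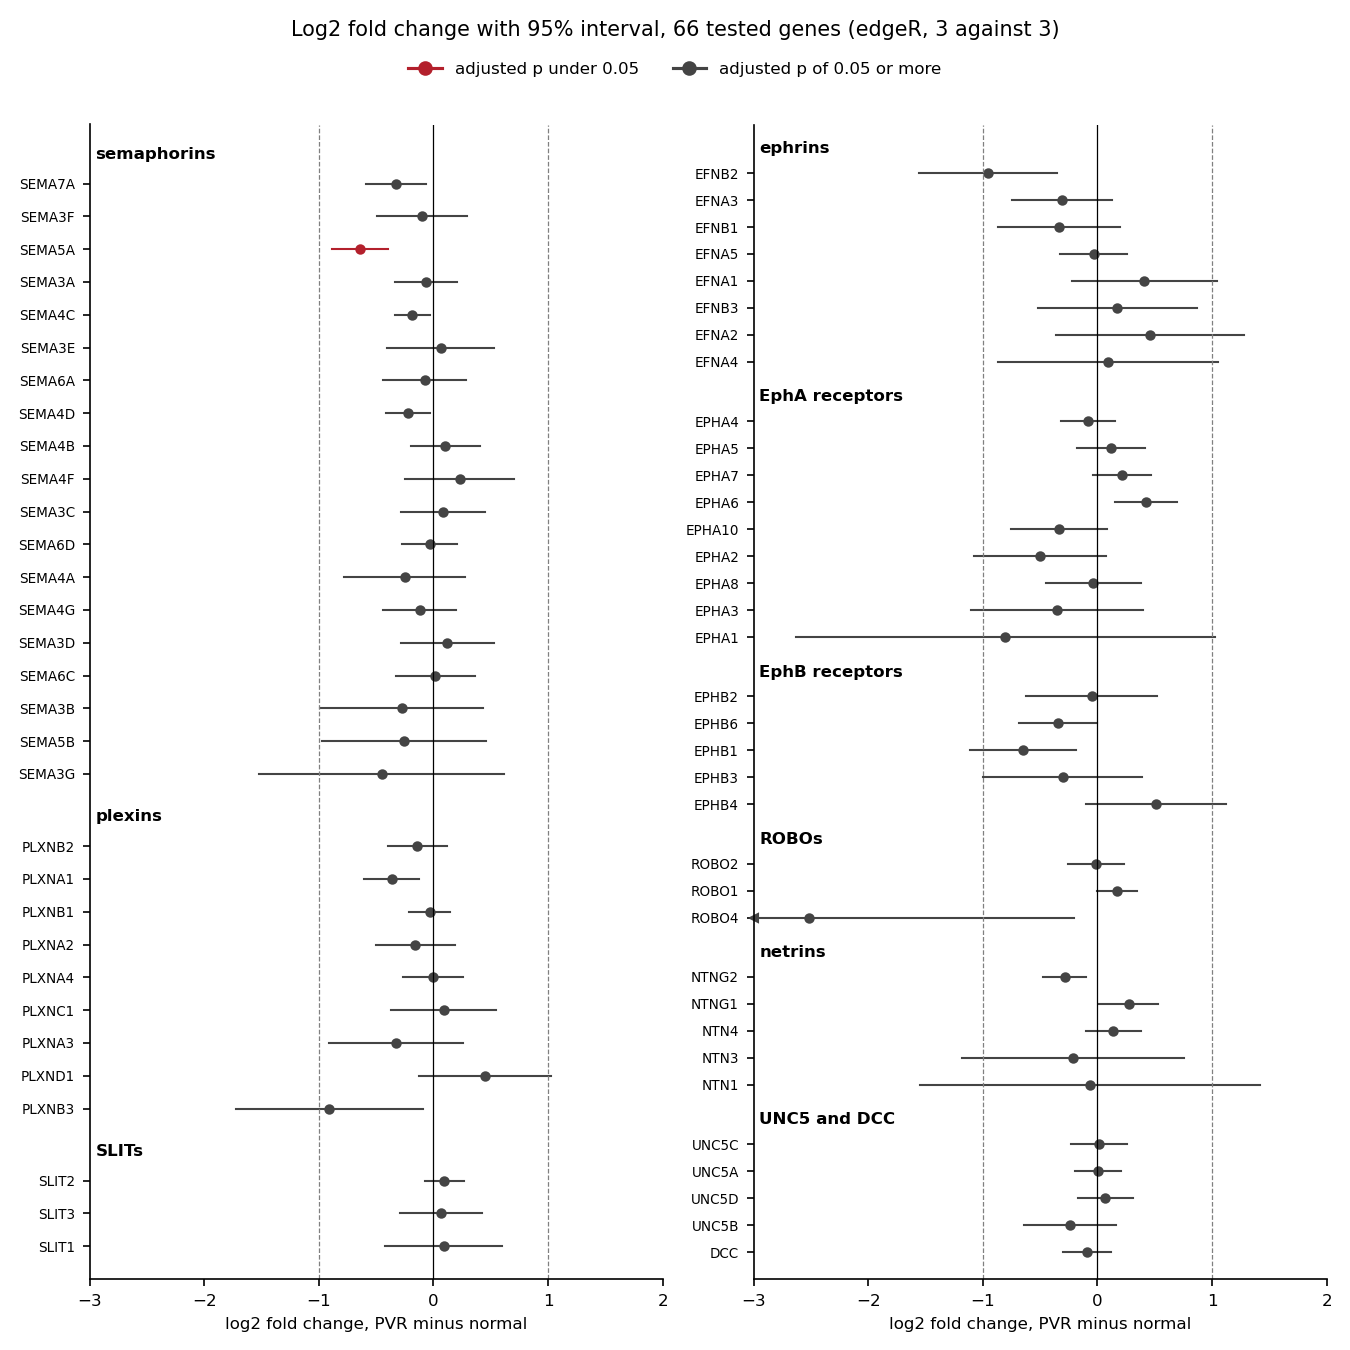
Log2 fold change, PVR against normal, of the 66 guidance genes tested, by family, with 95% intervals as lines and dashed lines at 1 either way. SEMA5A is the single gene in red (adjusted p under 0.05), and the interval of ROBO4 runs past the left edge.

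SEMA5A, a transmembrane semaphorin known to inhibit the growth of retinal axons, was lower in every PVR sample than in any normal sample. In CPM, it stood at 195, 249 and 223 in normal replicates 1 to 3 and at 141, 137 and 149 in PVR replicates 1 to 3. The fall was by 0.64 on the log2 scale (SE 0.10, 95% interval -0.89 to -0.40, adjusted p = 0.0367 by edgeR's quasi-likelihood test), from 222 ± 27.2 to 142 ± 6.11 CPM. The call held in 10 of 16 alternatives, and the log2 fold change stayed between -0.73 and -0.45 in all of them. It was lost without normal replicate 2 (adjusted p = 0.098), PVR replicate 1 (0.225) or PVR replicate 2 (0.0999). It was also lost with limma on log2(FPKM + 1) (0.0521), with the replicate number as a block (0.0837) and with normal replicates 2 and 3 left out together (0.196), an alternative chosen after seeing the data. Its close relative SEMA5B had a log2 fold change of -0.26 (adjusted p = 0.656).

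Among the other semaphorins none passed the adjusted p. SEMA7A had the second-highest level of all members, and its groups did not overlap, at 48.2 ± 5.64 FPKM in normal and 40.2 ± 3.61 FPKM in PVR (log2 fold change -0.33, adjusted p = 0.166). SEMA4C and SEMA4D, transmembrane ligands of B-type plexins, did not overlap in CPM, with smaller log2 fold changes of -0.18 (adjusted p = 0.178) and -0.22 (adjusted p = 0.189). SEMA4G did not overlap in CPM either, at -0.12, but SEMA4D and SEMA4G did overlap in FPKM. The 7 class 3 semaphorins, which are secreted, had a median log2 fold change of -0.06. SEMA3A, the classic repellent of this class, stood at 14.5 ± 2.68 FPKM in normal and 14.6 ± 0.073 FPKM in PVR. SEMA3G, low in every sample, stood at 1.23, 2.83 and 3.85 CPM in normal and 1.56, 1.52 and 2.69 CPM in PVR (log2 fold change -0.45, adjusted p = 0.594), and it turned to 0.65 once normal replicates 2 and 3 were left out.

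All 4 A-type and all 3 B-type plexins had log2 fold changes below 0 (background 51.1%). Their medians were -0.24 and -0.14, and none of them passed the adjusted p. PLXNA1, a receptor for class 3 semaphorins together with neuropilins, stood at 73.2, 80.2 and 73.9 CPM in normal and at 56.5, 53.0 and 67.3 CPM in PVR. The groups did not overlap, and the log2 fold change was -0.36 (SE 0.10, adjusted p = 0.117). PLXNB2, the plexin with the highest FPKM, did overlap, at 9.78, 10.8 and 9.40 FPKM in normal and 9.09, 8.85 and 10.6 FPKM in PVR. PLXND1, a receptor for SEMA3E known from vessel patterning, was one of the 2 plexins on the other side of 0, at 10.3, 9.26 and 13.2 CPM in normal and 15.4, 10.4 and 18.9 CPM in PVR (log2 fold change 0.45, adjusted p = 0.332). Its ligand SEMA3E had a log2 fold change of 0.06.

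**Figure D3:**
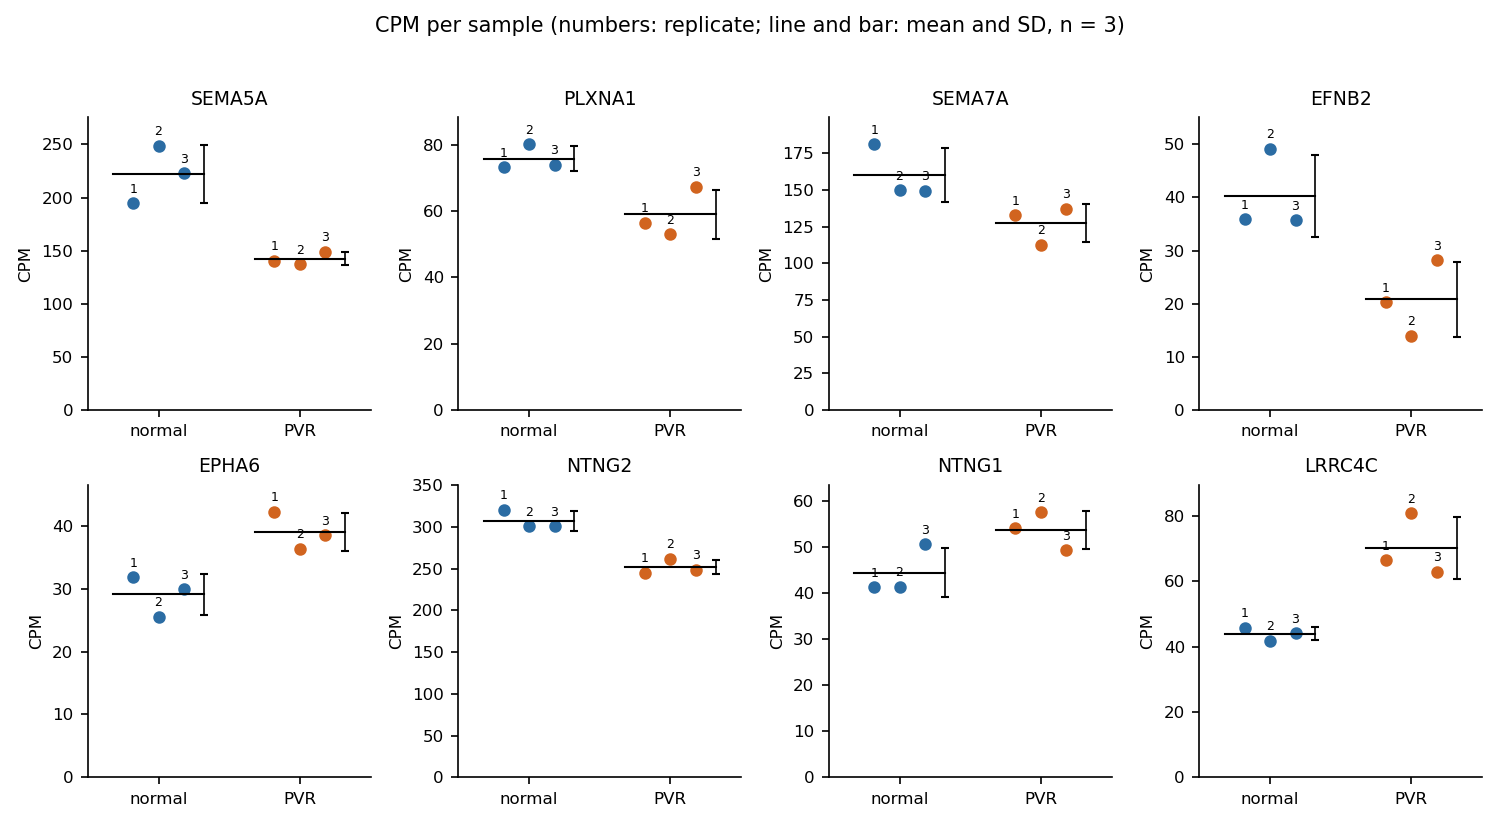
CPM per sample of 7 guidance genes and LRRC4C, a netrin-G partner, with points for the 3 samples of each group and mean ± SD beside them. The groups are apart for SEMA5A, PLXNA1, SEMA7A, EFNB2, EPHA6, NTNG2 and LRRC4C and overlap for NTNG1.

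Of the ephrins, EFNB2 had the largest log2 fold change of all members with a mean CPM of at least 1, though it did not pass the adjusted p. It is a membrane-spanning ligand that marks arterial endothelium and is also made by neurons. Its CPM was 35.9, 49.2 and 35.8 in normal and 20.3, 14.0 and 28.1 in PVR samples, so the groups did not overlap and PVR replicate 3 lay nearest to normal. The log2 fold change was -0.95 (SE 0.26, 95% interval -1.55 to -0.35, adjusted p = 0.107 by edgeR's quasi-likelihood test). The call depended on the tool and on 1 sample: DESeq2 gave an adjusted p of 0.00244, and edgeR gave -1.24 with an adjusted p of 0.0411 without PVR replicate 3, which also passes both thresholds. Over all 16 alternatives the adjusted p ran from 0.00244 to 0.405. EPHB4, a receptor of EFNB2 that marks veins, lay the other way, at 2.29, 2.62 and 3.18 CPM in normal and 3.64, 3.15 and 4.72 CPM in PVR (log2 fold change 0.51, adjusted p = 0.301). The groups overlapped for EPHB4 in CPM but not in FPKM.

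The A-type ephrins, which are anchored by a lipid tail and form gradients along which ganglion cell axons map, had a median log2 fold change of 0.09. EFNA1 stood at 1.79, 1.88 and 2.48 CPM in normal and 2.29, 3.15 and 2.72 CPM in PVR (log2 fold change 0.41, adjusted p = 0.412). EFNA2 stood at 1.34, 2.39 and 1.18 CPM in normal and 2.38, 2.47 and 1.89 CPM in PVR (log2 fold change 0.46, adjusted p = 0.477). The groups overlapped for both genes. EFNA3, the A-type ephrin with the highest FPKM, stood at 5.06 ± 0.975 FPKM in normal and 4.29 ± 0.161 FPKM in PVR (log2 fold change -0.31, adjusted p = 0.373).

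Among the EphA receptors, EPHA6 was higher in each PVR sample than in any normal sample. Its FPKM was 5.62, 4.39 and 5.40 in normal and 7.82, 6.82 and 7.03 in PVR, and its log2 fold change was 0.42 (SE 0.12, adjusted p = 0.111). DESeq2 gave it an adjusted p of 0.036, the only one of its 16 alternatives past the threshold. EPHA4, a receptor for both types of ephrin, had the highest EphA level and overlapped between groups, at 13.7, 11.8 and 15.5 FPKM in normal and 14.1, 12.6 and 14.0 FPKM in PVR. EPHA5 and EPHA7 had log2 fold changes of 0.12 and 0.21. EPHA2, at 4.78, 7.84 and 7.48 CPM in normal and 3.97, 5.33 and 4.91 CPM in PVR, overlapped at its lower end (log2 fold change -0.50, adjusted p = 0.290).

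The 5 EphB receptors, which bind B-type ephrins, had a median log2 fold change of -0.30, and none passed the adjusted p. EPHB1, known for guiding the axons that stay on the same side at the optic chiasm, stood at 5.67, 7.0 and 7.58 CPM in normal and 4.10, 4.05 and 4.77 CPM in PVR. Its groups did not overlap, and its log2 fold change was -0.65 (SE 0.20, adjusted p = 0.132). EPHB6, which lacks kinase activity, also did not overlap, at -0.34 (adjusted p = 0.236). EPHB2 had the highest level of the family and the widest spread in PVR, at 3.97, 5.39 and 2.66 FPKM beside 3.98, 3.41 and 4.44 FPKM in normal.

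None of the SLITs and ROBOs tested passed the adjusted p. SLIT2, the SLIT with the highest level, stood at 18.4, 19.1 and 20.2 FPKM in normal and 21.4, 21.1 and 22.3 FPKM in PVR, without overlap, but with a log2 fold change of 0.10 (95% interval -0.07 to 0.26, adjusted p = 0.461). SLIT1 and SLIT3 had log2 fold changes of 0.09 and 0.07. ROBO2, the main ROBO by level, stood at 12.3, 10.5 and 13.2 FPKM in normal and 12.7, 11.3 and 13.5 FPKM in PVR, and its log2 fold change of -0.01 changed sign under other scalings. ROBO1 did not overlap (log2 fold change 0.17, adjusted p = 0.246).

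In the netrin family the netrin-G ligands held most of the level and lay on opposite sides of 0. NTNG2 did not overlap between groups, at 60.2 ± 2.69 FPKM in normal and 51.9 ± 2.43 FPKM in PVR (log2 fold change -0.29, SE 0.08, adjusted p = 0.114). DESeq2 gave it an adjusted p of 0.0321. NTNG1 stood at 10.1, 9.87 and 12.6 FPKM in normal and 13.9, 15.0 and 12.4 FPKM in PVR, with overlap (log2 fold change 0.27, adjusted p = 0.219). The secreted netrins had lower mean FPKM than either. NTN4, found in basement membranes, stood at 29.4, 34.0 and 32.9 CPM in normal and 35.3, 37.6 and 33.1 CPM in PVR (log2 fold change 0.14), and NTN1, the classic axon attractant of the optic disc, had a mean under 1 FPKM in both groups.

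In CPM, the netrin receptors gave no difference beyond the spread, and UNC5A was apart in FPKM only. UNC5C, the receptor of this group with the highest level, stood at 8.38, 8.61 and 10.9 FPKM in normal and 9.33, 10.3 and 9.91 FPKM in PVR. DCC had 3.57 ± 0.107 and 3.52 ± 0.0734 FPKM, with a 95% interval of its log2 fold change from -0.30 to 0.12. All 5 of these receptors had intervals within 1 either way.

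Pathway lists around the ligands and receptors were counted in the same fit. Among co-receptors, neogenin and further guidance ligands, 23 of 25 listed genes were tested, and their median log2 fold change was -0.11. Past the adjusted p, 1 was higher and 0 were lower, beside 203 and 115 of all 18697 genes tested. The gene that rose was LRRC4C, the postsynaptic partner of NTNG1, at 45.8, 41.9 and 44.2 CPM in normal and 66.5, 81.0 and 63.0 CPM in PVR. Its groups did not overlap, and its log2 fold change was 0.67 (SE 0.11, adjusted p = 0.0361 by edgeR's quasi-likelihood test). LRRC4, the partner of NTNG2, had a log2 fold change of -0.11 (adjusted p = 0.592). The neuropilins NRP1 and NRP2 had log2 fold changes of -0.21 and -0.08, and NEO1, a receptor for netrins and repulsive guidance molecules, -0.20 (adjusted p = 0.303).

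Among genes that carry guidance signals to the cytoskeleton, 57 of 59 were tested, and the median was -0.04. Past the adjusted p, 1 was higher and 0 were lower, beside 203 and 115 of all 18697 genes tested. The higher gene was TIAM1, an exchange factor that activates the small GTPase RAC1. It stood at 71.7, 74.1 and 62.7 CPM in normal and 99.3, 97.1 and 95.7 CPM in PVR. It rose by 0.49 on the log2 scale (SE 0.08, adjusted p = 0.0404 by edgeR's quasi-likelihood test). The calls of LRRC4C and TIAM1 held in 8 and 7 of 16 alternatives.

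Levels of 3 members, none past the adjusted p, are given beside markers of other cells. ROBO4, a ROBO of endothelial cells, had 12, 44 and 106 counts in normal replicates 1 to 3 and 2, 3 and 23 counts in PVR replicates 1 to 3, and its log2 fold change was -2.52 (SE 0.99, 95% interval -4.83 to -0.21, adjusted p = 0.207). Normal replicate 1 lay below PVR replicate 3, so the groups overlapped. The endothelial tight junction gene CLDN5 had 43, 139 and 296 counts in normal and 11, 3 and 24 counts in PVR. Its normal samples had the order of ROBO4, as did those of 6 of the 13 endothelial markers tested, CLDN5 included, while KDR was lowest in normal replicate 3 (452, 438 and 347 CPM). As normal replicates 2 and 3 held the highest values of ROBO4, its change had to shrink without them (log2 fold change -0.43). The 13 endothelial markers tested had a median log2 fold change of -0.65, and 2 fell, VWF and CDH5. Their summed FPKM was 96.5 to 100.4 in normal and 109 to 114 in PVR, most of it from KDR and FLT1, which did not pass the adjusted p. CDH5, a defining junction gene of endothelium, was at 24, 41 and 103 counts in normal and 0, 0 and 1 counts in PVR. PECAM1, also a marker of this list, had 39, 84 and 69 counts in normal and 51, 90 and 67 counts in PVR. The log2 fold changes of PECAM1, EGFL7 and ECSCR were 0.23, -0.16 and -0.15.

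PLXNB3, a plexin known from oligodendrocytes, stood at 1.86, 3.81 and 4.25 CPM in normal and 1.83, 1.61 and 1.84 CPM in PVR (log2 fold change -0.91, SE 0.35, adjusted p = 0.199). Normal replicate 1 lay just above the PVR samples in CPM, and the groups overlapped in FPKM. The myelin gene MBP had 26.2, 113 and 242 CPM in normal and 7.67, 10.5 and 9.65 CPM in PVR. All 12 oligodendrocyte markers were lower in PVR, with a median log2 fold change of -2.45. Past the adjusted p, 4 fell, MAG, MOBP, ERMN and SOX10 (background 0.615% lower). As normal replicates 2 and 3 held the highest values of PLXNB3, its change had to shrink without them (log2 fold change -0.08). PLXNA3 was highest in normal replicate 2, the sample with the most lens RNA, at 24.8 CPM. It had 13.1 and 14.5 CPM in the other normal samples and 12.9 to 15.5 CPM in PVR. The lens gene BFSP1 had 0.657, 935 and 0.625 CPM in normal and 12.2, 15.3 and 7.60 CPM in PVR. In PVR, BFSP1 thus lay above normal replicates 1 and 3, and PLXNA3 overlapped them. The part of vessel, myelin or lens RNA in these values was not tested. The 16 retinal ganglion cell markers, from the neurons whose axons these genes guide, had 0 calls (background 1.7%). Their median log2 fold change was -0.21, and 15 values were below 0 (93.8%, background 51.1%).

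**Figure D4:**
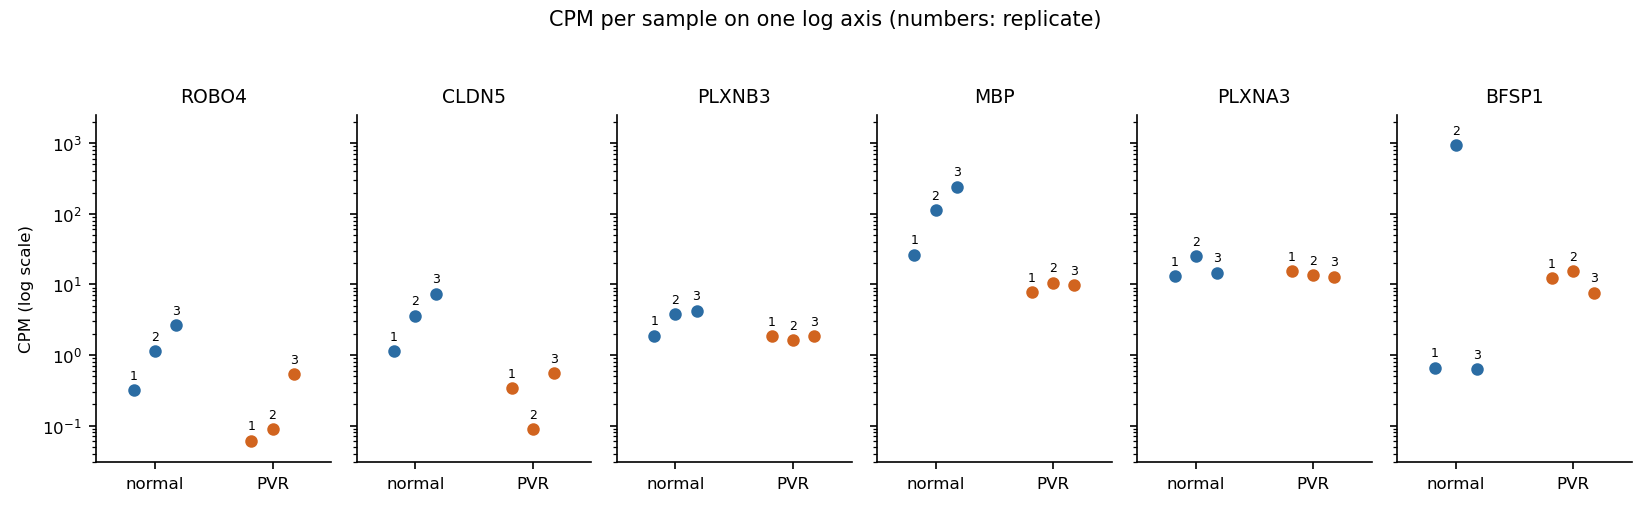
CPM per sample on a log axis for the guidance genes ROBO4, PLXNB3 and PLXNA3, each beside a marker of another cell type: CLDN5 for endothelium, MBP for oligodendrocytes and BFSP1 for lens, with numbers for the replicates. ROBO4 and CLDN5 are both highest in normal replicate 3, and BFSP1 and PLXNA3 are both highest in normal replicate 2. In PVR, BFSP1 lies above normal replicates 1 and 3, and PLXNA3 overlaps them.

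Spread within a group was alike in both conditions. Over the 63 members with a mean CPM of at least 1, the median coefficient of variation was 11.4% in normal and 9.94% in PVR samples. The highest PVR value lay in replicate 3 for 41 of these genes, in replicate 2 for 16 and in replicate 1 for 6. In normal samples the highest value lay in replicates 1, 2 and 3 for 15, 20 and 28 genes. PVR replicate 3 had 1.64 times the mean CPM of the other PVR samples for EFNB2 and 0.583 times for EPHB2. Leaving out PVR replicate 3 gave 3 members past the adjusted p, EFNB2, PLXNA1 and SEMA5A. The share of all genes past it in that fit was not counted.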

How the data were processed

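RNA of 3 normal and 3 PVR samples was grouped by the condition in the labels. Reads were aligned to OryCun2.0 with HISAT2 and counted with htseq-count, and the authors deposited a raw count and an FPKM value per gene and sample. Which strand setting htseq-count had, and which annotation release, is not given in the sources used here, so reads of overlapping or antisense genes may be mixed. Count over FPKM gave the same gene length in each sample (largest relative difference 4.24e-09).

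Counts were filtered with filterByExpr, which left 18697 genes, scaled by TMM and tested with the edgeR quasi-likelihood test (edgeR 4.0.16, R 4.3.3), with Benjamini-Hochberg adjustment over all genes tested. DESeq2 1.42.0 and limma 3.58.1 were alternatives. A standard error is the log2 fold change over the root of F, and 95% intervals use the t quantile at the fitted degrees of freedom. Scripts were tested on simulated data. A gene needs 3 counts to be seen, 0.0697 to 0.094 CPM, and this covers counting error only. Replicates differed by more than counting noise.

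The members and lists were chosen with earlier results of these data known. Values in every sample are given for members past the adjusted p, the 6 largest log2 fold changes each way at a mean CPM of at least 1, the highest FPKM of each family, and members without overlap and beyond a log2 fold change of 1. PLXNA1, ROBO4, PLXNA3, NTN4, NTNG1's partner LRRC4C, TIAM1 and the markers were added by their role or after their values were seen. For list genes, 9 were matched through a RefSeq gene number. The deposited tables had no other sample columns, and no sequence was used.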

Additional observations from a re-analysis of the deposited data

How the results depend on the processing

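Over the 16 alternatives, 433 values of single genes kept their direction and side of the adjusted p threshold, 23 fell short of it, 5 came to pass it and 18 changed sign. Genes past both thresholds, 188 in all, numbered 808 with DESeq2, 87 with limma on log2(FPKM + 1), 82 with the replicate block, 87 without normal replicates 2 and 3, and 22 to 436 with 1 sample left out. Members past both numbered 0 to 1 with 1 sample left out. For the adjusted p alone, the share of all genes was not counted in the alternatives. The counts of members and pathway genes that follow thus lack that background. Members past the adjusted p, 1 in all, numbered 4 with DESeq2 (EFNB2, EPHA6, NTNG2 and SEMA5A), 0 with log2(FPKM + 1), 0 with the replicate block, 0 without normal replicates 2 and 3, and 0 to 3 with 1 sample left out. Pathway genes, 2 in all, numbered 7 with DESeq2, 1 with limma-voom, 0 with log2(FPKM + 1), log2(FPKM + 0.1), the replicate block or both normal samples left out, and 0 to 3 with 1 sample left out.

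The labels give replicate numbers but do not say whether same-numbered samples are paired. The correlations of same-numbered samples were -0.0129, 0.0734 and 0.0417, and only PVR replicate 2 correlated best with its own number. With 3 samples per group, such correlations cannot decide whether samples were paired. The netrin median was 0.0576 with the replicate block, and SEMA5A had an adjusted p of 0.0837.

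Medians of small families moved. For EphB receptors the median was -0.0984 with log2(FPKM + 1), -0.0584 without normal replicates 2 and 3, and -0.347 to -0.124 with 1 sample left out. For ROBOs it was -0.66 with DESeq2, 0.0589 with log2(FPKM + 0.1), -0.64 without the filter, 0.0910 with at least 10 counts in every sample, and -0.0811 to 0.0657 with 1 sample left out. For netrins it was 0.0385 with DESeq2, 0.0508 with log2(FPKM + 0.1), 0.0350 without the filter, 0.27 without normal replicates 2 and 3, and -0.27 to 0.18 with 1 sample left out. For UNC5 and DCC it was 0.0665 with log2(FPKM + 1), 0.0729 with log2(FPKM + 0.1) and -0.0557 to 0.00722 with 1 sample left out. For plexins it was -0.24 to -0.00098 with 1 sample left out. The unfiltered fits add ROBO3 and NTN5, and the stricter filter drops ROBO4. Other causes were not tested.

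Sign changes were as follows. ROBO2 was 0.0547 with log2(FPKM + 1), 0.0589 with log2(FPKM + 0.1), 0.0176 with upper-quartile factors, 5.98e-05 with at least 10 counts in every sample, and -0.0811 to 0.0657 with 1 sample left out. SEMA3G was 0.65 and NRP1 0.18 without normal replicates 2 and 3. With 1 sample left out, EPHA4 ran from -0.16 to 0.00712, EPHB2 from -0.31 to 0.16, UNC5C from -0.0557 to 0.13, NRP1 from -0.39 to 0.15 and NRP2 from -0.21 to 0.0652. With normal replicates 2 and 3 left out, the lone normal sample is assumed to vary like the others. Few counts limit ROBO4, NTN1, EPHA1 and EFNA4.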
